A study of Mus musculus with 6 samples.

Results

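The immediate-early response genes described here are Fos, Fosb, Jun, Junb, Egr1, Atf3, Ier2, Ier3, Dusp1 and Myc. They were chosen by name: all 10 symbols were looked up in GENCODE M21, the mouse gene annotation, and all 10 were found among the 20533 genes of the deposited table. RNA was sequenced as 6 libraries from distal colons of male C57BL/6 mice, wild type and 7 weeks old. A pair of libraries came from mice on 2% dextran sulphate sodium (DSS), which damages the lining of the colon when drunk, together with powdered montmorillonite, an adsorbent clay. Another pair came from mice on 2% DSS alone, and the last pair from mice on water. All were taken at day 7. The concentration of the clay is not given in the sources used here, and nothing in the labels ties the libraries of a group to different animals, so every p-value measures the spread between libraries, which may be technical.

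Immediate-early genes are transcribed within minutes of a stimulus, without new protein synthesis, when growth factors, cytokines, stretch or injury activate MAP kinases and the transcription factors SRF and CREB that already sit at their promoters. Fos and Fosb encode proteins that pair with Jun family proteins to form the dimeric factor AP-1, Egr1 encodes a zinc finger factor, and Atf3 a stress-induced repressor and activator of the ATF family. Dusp1 encodes a phosphatase that switches MAP kinases off again, Ier3 a regulator of survival induced through NF-kB, Ier2 a small nuclear protein, and Myc the factor that drives ribosome production and growth. In the colon these genes are used in crypt proliferation and wound repair, and they are also known to be induced while tissue is being removed and handled.

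The promoters of the members that varied most between libraries are shown from 250 bases before to 50 bases after the start site, 5′ to 3′ on the gene's own strand, as RefSeq gives them on GRCm38.p6. Of the 10 members, the promoters of 7 were searched (Fos, Fosb, Jun, Junb, Atf3, Dusp1 and Ier3). Those of Egr1, Ier2 and Myc were left out of the search, so the motif counts say nothing about them. A single window per gene was searched. GENCODE starts Atf3 at 191218039 and Dusp1 at 26562128, both far upstream of their windows, so any promoter there was not searched. Capitals mark the cyclic AMP response half-site TGACG or its full form TGACGTCA, the TATA box core TATAA, and the kappaB site, each on either strand.
Fos, chr12:85473640-85473939, plus strand: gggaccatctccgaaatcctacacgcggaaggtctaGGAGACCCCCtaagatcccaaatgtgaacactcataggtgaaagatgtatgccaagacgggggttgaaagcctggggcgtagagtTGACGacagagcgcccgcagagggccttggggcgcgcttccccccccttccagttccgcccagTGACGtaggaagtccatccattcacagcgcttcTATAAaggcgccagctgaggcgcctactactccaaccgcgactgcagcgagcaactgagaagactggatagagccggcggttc
Fosb, chr7:19309996-19310295, minus strand: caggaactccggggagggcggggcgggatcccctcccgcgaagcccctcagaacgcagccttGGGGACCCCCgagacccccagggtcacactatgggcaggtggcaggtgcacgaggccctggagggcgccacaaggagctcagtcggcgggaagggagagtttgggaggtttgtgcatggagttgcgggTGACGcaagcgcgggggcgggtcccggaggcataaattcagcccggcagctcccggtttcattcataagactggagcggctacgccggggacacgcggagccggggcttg
Atf3, chr1:191183284-191183583, minus strand: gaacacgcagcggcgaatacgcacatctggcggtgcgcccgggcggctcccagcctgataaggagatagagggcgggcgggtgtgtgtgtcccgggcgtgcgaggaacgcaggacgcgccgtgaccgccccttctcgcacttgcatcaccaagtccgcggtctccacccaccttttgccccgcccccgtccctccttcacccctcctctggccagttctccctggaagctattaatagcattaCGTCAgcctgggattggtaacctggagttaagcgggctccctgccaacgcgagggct
Dusp1, chr17:26508423-26508722, minus strand: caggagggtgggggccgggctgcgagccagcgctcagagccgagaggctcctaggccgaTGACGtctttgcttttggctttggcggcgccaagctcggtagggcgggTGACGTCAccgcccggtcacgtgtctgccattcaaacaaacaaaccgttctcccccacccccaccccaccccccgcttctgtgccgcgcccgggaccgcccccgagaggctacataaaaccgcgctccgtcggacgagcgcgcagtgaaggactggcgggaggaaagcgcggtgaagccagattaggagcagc
Ier3, chr17:35821463-35821762, plus strand: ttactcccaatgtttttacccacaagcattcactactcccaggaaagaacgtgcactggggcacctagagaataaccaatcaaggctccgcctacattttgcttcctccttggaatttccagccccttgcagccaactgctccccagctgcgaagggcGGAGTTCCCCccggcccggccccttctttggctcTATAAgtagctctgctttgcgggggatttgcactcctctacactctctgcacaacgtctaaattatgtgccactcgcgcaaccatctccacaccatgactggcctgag

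The half-site TGACG stood in 5 of the 7 promoters (Atf3, Fosb, Junb, Fos and Dusp1), against 20.8% of 32851 promoters of the same length. Fos held it at positions -129 to -125 and -66 to -62 from the start site, and Dusp1 held the full TGACGTCA, which contains the half-site on both strands, at -143 to -136. TGACGTCA was found in 1.79% of all promoters and in no other of the 7. The kappaB site stood in Fosb, Fos and Ier3, against 8.46% of all promoters, and TATAA in Junb, Fos and Ier3, against 24.9%. From the RefSeq start site, TATAA lay at -33 to -29 in Fos and at -58 to -54 in Ier3. In Junb it lay at 1 to 5, past that start. GENCODE starts Ier3 at base 35821684, upstream of the RefSeq start, and Junb at 84978718, downstream of it. TATAA lies before both GENCODE starts, so these distances depend on the annotation used. The CArG box bound by SRF, the AP-1 site TGANTCA and the STAT site TTCNNNGAA were in none of the 7 windows. In all promoters their shares were 1.63%, 7.81% and 8.30%. Sequence farther upstream than the windows was not searched, so these zero counts do not show that a gene lacks the site. The EGR site GCGNGGGCG was in Fosb alone, against 5.55%. These matches describe letters in a window and show no binding.

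The values are normalised read counts: each library's reads were scaled by its own size factor. Library totals, in whole reads, were 6395768 and 4494666 with DSS plus montmorillonite, 21481594 and 15212981 with DSS, and 8936826 and 3741494 with water. The members were measured with 28 to 5727 reads each in a library. The DSS plus montmorillonite libraries stood far apart from each other, also in marker genes of cell types. The summed value of 6 neutrophil markers was 104 and 6948 with DSS plus montmorillonite, 3384 and 7569 with DSS, and 25.9 and 40.9 with water, where Retnlg was at 0 in both libraries and S100a8, S100a9 and Cxcr2 in replicate 1. The sum of 6 epithelial markers was 146860 and 76150 with DSS plus montmorillonite, 58016 and 38279 with DSS, and 136497 and 142305 with water. Skeletal muscle markers summed to 3626 in replicate 1 of DSS plus montmorillonite and 2880 in replicate 2 of DSS, against 90.5 to 585 in the other libraries, and stratified squamous markers to 6056 in replicate 2 of DSS plus montmorillonite and 33409 in replicate 2 of DSS, against 31.7 to 362. In RNA from whole tissue, fewer cells of a type and less RNA per cell cannot be told apart.

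Compared per length, as RPKM (reads scaled to exon length and library total), Junb had the highest level, with a median of 95.8 over the 6 libraries and a range of 75.5 to 164. Fos followed at 51.7 (36.9 to 226), then Ier2 at 48.7 (40.8 to 67.6), Jun at 31.8 (22.1 to 42.8) and Ier3 at 29.6 (5.74 to 157). Dusp1 stood at 20.4 (6.78 to 61.2), Atf3 at 16.1 (7.14 to 73.8), Egr1 at 10.7 (3.52 to 20.7), Myc at 7.14 (2.30 to 20.7) and Fosb at 1.48 (0.843 to 7.46). The ranges of neighbours in this order overlapped in every case. Levels of Ier2 spread 1.66-fold between the lowest and the highest library and those of Ier3 27.4-fold. Junb shares 173 of its 2301 bases of exon with Prdx2 and Jun 232 of 3189 with Junos, both on the other strand. The sources used here do not say whether counting used strand, so reads within the shared bases cannot be told apart.

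**Figure D1:**
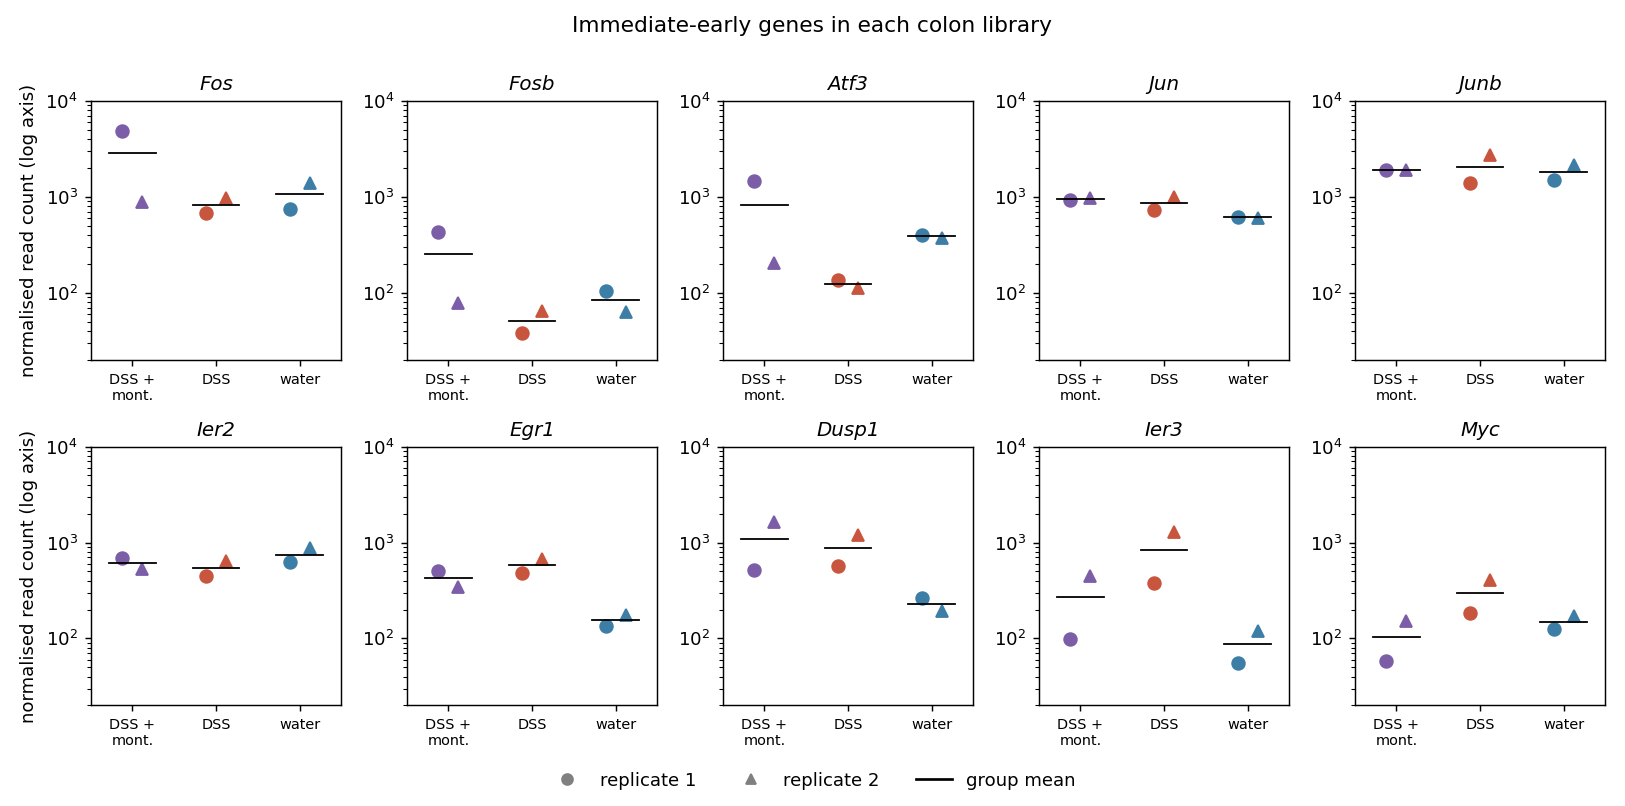
Normalised read count (log axis) of each immediate-early gene in each library, with DSS plus montmorillonite (DSS + mont.), DSS and water from left to right. Circles are replicate 1, triangles replicate 2, and bars the mean of the 2 libraries. Fos, Fosb and Atf3 are highest in replicate 1 of DSS plus montmorillonite, at 4887, 429 and 1461, while Egr1 and Dusp1 are higher in every library with DSS than in either water library.

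DSS was set against water to see what injury by DSS does to these genes after 7 days. Egr1, Ier3 and Dusp1 rose and Atf3 fell in the limma fit of these 4 libraries, while Fos, Fosb, Jun, Junb, Ier2 and Myc did not pass. Thus 3 of 10 members were called higher and 1 lower, against 7.90% and 7.18% of the 20307 genes tested. The groups did not overlap for 6 of 10 members (5 higher and 1 lower), against 62.4% of all genes (33.9% higher and 28.5% lower), so that count is no more than the background. At an unadjusted p under 0.05 limma gave 32.4% of all genes. edgeR called the same 4 members (14.7% of all genes), as did DESeq2 on the same libraries (24.1% of 16762 genes). DESeq2 on all 6 libraries called 3 of them, without Atf3 (15.2% of 15582 genes). DESeq2 shares are taken over the genes to which it gave an adjusted p. The median log2 fold change of the 10 members was 0.30, beside 0.10 for all genes.

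Egr1 (ENSMUSG00000038418.7, GRCm38 chromosome 18, 34859823 to 34864984), the zinc finger factor, had normalised read counts of 480 and 676 in DSS libraries, against 135 and 175 in water libraries. Both DSS libraries were thus well above both water libraries. The mean was 578 ± 138 with DSS and 155 ± 28.1 with water (SD, n = 2 each), a 3.68-fold difference (log2 1.88 ± 0.26 SE, limma adjusted p = 0.0116). Dusp1 (chromosome 17, 26505590 to 26562128), the MAP kinase phosphatase, had 564 and 1190 with DSS, against 261 and 191 with water. It rose 3.66-fold (log2 1.87 ± 0.38 SE, limma adjusted p = 0.0285), and its lower DSS library was still above both water libraries. Ier3 (chromosome 17, 35821684 to 35822923), the NF-kB-induced survival regulator, had 383 and 1296 with DSS, against 55.7 and 118 with water. Its mean was 839 ± 646 with DSS and 87.0 ± 44.3 with water, 8.58-fold higher in the fit (log2 3.10 ± 0.63 SE, adjusted p = 0.0286). Replicate 2 held most of the Ier3 signal among the DSS libraries. That library also had the highest marker sums for squamous epithelium, neutrophils, fibroblasts and endothelium. Their part in the result was not tested.

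Atf3 (ENSMUSG00000026628.13, chromosome 1, 191170296 to 191218039) went the other way, with 137 and 112 in DSS libraries, against 403 and 373 in water libraries. Both pairs lay close together and apart from each other. The mean was 125 ± 17.8 with DSS and 388 ± 21.3 with water, 0.322 of the water level (log2 -1.64 ± 0.22 SE, limma adjusted p = 0.0112). All 6 epithelial markers also fell, with a median log2 fold change of -1.51, and their part in the fall of Atf3 was not tested. A fit of all 6 libraries, which shares the wide spread of the DSS plus montmorillonite libraries, called no gene at all (adjusted p = 0.141 for Egr1, 0.158 for Dusp1, 0.146 for Ier3 and 0.279 for Atf3, with 4662 genes, 23.0%, at an unadjusted p under 0.05 and 2376 called by DESeq2 on 6 libraries). None of the 4 calls held with any 1 of the 4 libraries left out, nor did most calls of other genes, in fits that set a lone library against a pair. The log2 fold change then ranged from 1.64 to 2.13 for Egr1 and 1.33 to 2.41 for Dusp1. It ranged from 2.22 to 3.98 for Ier3 and -1.78 to -1.49 for Atf3.

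The AP-1 genes were less clear. Fos (chromosome 12, 85473890 to 85477273) had 673 and 977 in DSS libraries, against 744 and 1399 in water libraries, and the groups overlapped (log2 -0.33 ± 0.34 SE, limma adjusted p = 0.551). Fosb had 37.9 and 65.2 with DSS, against 105 and 63.7 with water (log2 -0.70 ± 0.43 SE). Jun had 740 and 995 with DSS, against 622 and 600 with water, with no overlap but a small difference (log2 0.49 ± 0.20 SE, adjusted p = 0.158). Junb had 1390 and 2745 with DSS, against 1490 and 2176 with water, so that 1 DSS library lay below both water libraries and the other above both. Ier2 had 447 and 648 with DSS, against 624 and 876 with water (log2 -0.46 ± 0.26 SE). Myc (chromosome 15, 61985391 to 61990374), the growth factor-responsive driver of ribosome production, had 184 and 410 with DSS, against 126 and 173 with water. Myc did not overlap between the groups, but its 1.86-fold difference did not pass (adjusted p = 0.200).

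DSS plus montmorillonite was set against water to place the doubly treated colons relative to untreated tissue. No member passed in the limma fit, and neither did any of the 20307 genes (0%). At an unadjusted p under 0.05 there were 1576 genes (7.76%, and 10.1% in the fit of 6 libraries). With edgeR 0 genes passed, with DESeq2 on the same 4 libraries 200 (1.32% of 15150) and with DESeq2 on 6 343 (2.32% of 14795). Egr1, Dusp1 and Jun were higher in both treated libraries than in either water library. These 3 of 10 without overlap, all higher, stand against 21.5% of all genes that were higher without overlap and 40.8% in either direction. Egr1 had 503 and 340 with DSS plus montmorillonite, against 135 and 175 with water (log2 1.42 ± 0.30 SE, limma adjusted p = 0.629). Dusp1 had 519 and 1653 with DSS plus montmorillonite, against 261 and 191 with water (log2 2.05 ± 0.60 SE, adjusted p = 0.629), and DESeq2 called it on the same 4 libraries (adjusted p = 0.0191). Jun had 919 and 972 with DSS plus montmorillonite, against 622 and 600 with water, 1.55-fold higher (log2 0.63 ± 0.17 SE, limma adjusted p = 0.629).

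Among the other members, the treated pair lay close together for Junb (1923 and 1891) and Ier2 (693 and 532). It disagreed on Fos, Fosb, Atf3, Ier3 and Myc. Fos had 4887 and 892 in DSS plus montmorillonite libraries, against 744 and 1399 in water libraries. Replicate 1 was thus far above every other library of the study, whereas replicate 2 lay within the range of water. Fosb had 429 and 78.1 with DSS plus montmorillonite, against 105 and 63.7 with water, in the same arrangement. Atf3 had 1461 and 207 with DSS plus montmorillonite, against 403 and 373 with water, so that replicate 1 lay above both water libraries and replicate 2 below both. Ier3 showed the opposite order, with 99.2 and 445 with DSS plus montmorillonite, against 55.7 and 118 with water. Myc had 57.5 and 151 with DSS plus montmorillonite, against 126 and 173 with water, and was lowest of all libraries in replicate 1.

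The gap between the DSS plus montmorillonite libraries, replicate 1 minus replicate 2, was 2.45 for Fos, 2.44 for Fosb and 2.81 for Atf3 on the log2 scale. Gaps of that size or larger in either direction were seen in 4.66%, 4.69% and 3.41% of the 11942 genes averaging 50 or more, whose median gap was 0.48. The gap was -2.15 for Ier3, -1.67 for Dusp1 and -1.37 for Myc, sizes reached by 6.22%, 10.4% and 14.6% of those genes. Jun (-0.08), Junb (0.02), Ier2 (0.38) and Egr1 (0.57) differed little between the same libraries. Gaps about as uncommon for their own pair were also seen elsewhere. In the water pair the gap was -0.91 for Fos (reached by 3.75% of those genes), 0.71 for Fosb (6.96%) and -1.07 for Ier3 (2.28%). Atf3 was at 0.11 there (69.1%). In the DSS pair it was -1.76 for Ier3 (2.30%), -0.54 for Fos (28.8%), -0.77 for Fosb (15.85%) and 0.29 for Atf3 (54.7%). In the group means, the log2 fold change against water was 1.03 ± 0.88 SE for Fos, 1.16 ± 0.88 for Fosb and 0.50 ± 0.95 for Atf3. Without replicate 1 of DSS plus montmorillonite these became -0.19, -0.06 and -0.90, and without replicate 2 they became 2.26, 2.38 and 1.91.

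**Figure D2:**
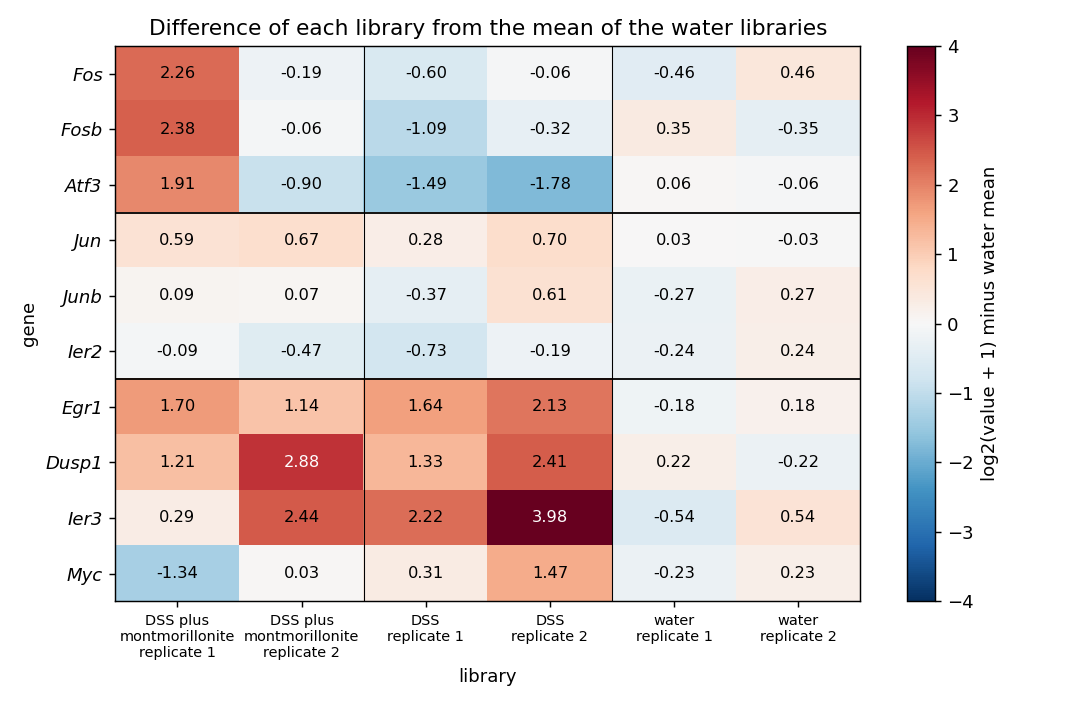
Difference of each library (columns, DSS plus montmorillonite, DSS and water) from the mean of the water libraries for each immediate-early gene (rows), as log2(value + 1), with the value printed in each cell. Fos, Fosb and Atf3 (upper block) stand 2.26, 2.38 and 1.91 above water in replicate 1 of DSS plus montmorillonite and below the water mean in the other treated libraries, Jun, Junb and Ier2 (middle block) stay within 0.73 of it, and Ier3 reaches 3.98 in replicate 2 of DSS.

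Skeletal muscle markers, which summed to 3626 in replicate 1 of DSS plus montmorillonite, summed to 2880 in replicate 2 of DSS, where Fos was at 977, Fosb at 65.2 and Atf3 at 112. The part of skeletal muscle in these levels was not tested. Smooth muscle markers summed to 51071 and 19592 with DSS plus montmorillonite, 14089 and 25846 with DSS, and 26139 and 44650 with water, so that the libraries with the highest sums were also those with the highest Fos, 4887 and 1399. The part of smooth muscle in the level of Fos was not tested. Among heat shock genes, a class with members induced by cell stress, replicate 1 of DSS plus montmorillonite had a summed value of 13044 over 8 genes, within the 10972 to 19080 of the other libraries. Hspa8 alone made up 9855 of it, so the sum mostly follows that gene. In that library Hspa1a (54.7) and Hspa1b (124) lay above both water libraries (26.9 and 31.8, 80.6 and 75.0). Every other gene of the list lay below both. The part of cell stress in the level of Fos was not tested. Mitochondrially encoded genes took 4.26% of the reads of replicate 1 of DSS plus montmorillonite, within the 2.57% to 4.78% of the others.

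The comparison of DSS plus montmorillonite with DSS asks what the clay adds under the same injury. No member and no gene (0% of 20307) passed in the limma fit, with 1444 genes (7.11%; 11.3% in the fit of 6 libraries) at an unadjusted p under 0.05. No gene passed with edgeR, 76 (0.575% of 13219) with DESeq2 on the same libraries and 638 (4.55% of 14007) with DESeq2 on 6. Fosb and Atf3 were higher and Myc lower without overlap, 3 of 10 members against 39.9% of all genes (19.4% higher and 20.6% lower). Atf3 had 1461 and 207 with DSS plus montmorillonite, against 137 and 112 with DSS (log2 2.14 ± 0.94 SE, limma adjusted p = 0.697). Both treated values were above both DSS values, the second by a small margin. Myc had 57.5 and 151 with DSS plus montmorillonite, against 184 and 410 with DSS (log2 -1.55 ± 0.64 SE, adjusted p = 0.691). Fos had 4887 and 892 with DSS plus montmorillonite, against 673 and 977 with DSS, and overlapped. Without replicate 2 of DSS plus montmorillonite, Fos (log2 2.59, adjusted p = 0.0477) and Atf3 (3.55, 0.0331) passed, a comparison that sets 1 library against 2 and assumes that the lone library varies like the DSS pair. In that comparison 285 genes, 1.40% of all, passed. Ier3 had 99.2 and 445 with DSS plus montmorillonite, against 383 and 1296 with DSS (log2 -1.74 ± 0.92 SE). Egr1 had 503 and 340 with DSS plus montmorillonite, against 480 and 676 with DSS, and Dusp1 had 519 and 1653, against 564 and 1190 with DSS, both overlapping. The intervals of these differences are wide, and they do not show that the groups were alike. The comparisons share libraries, so their fold changes are not independent.

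**Figure D3:**
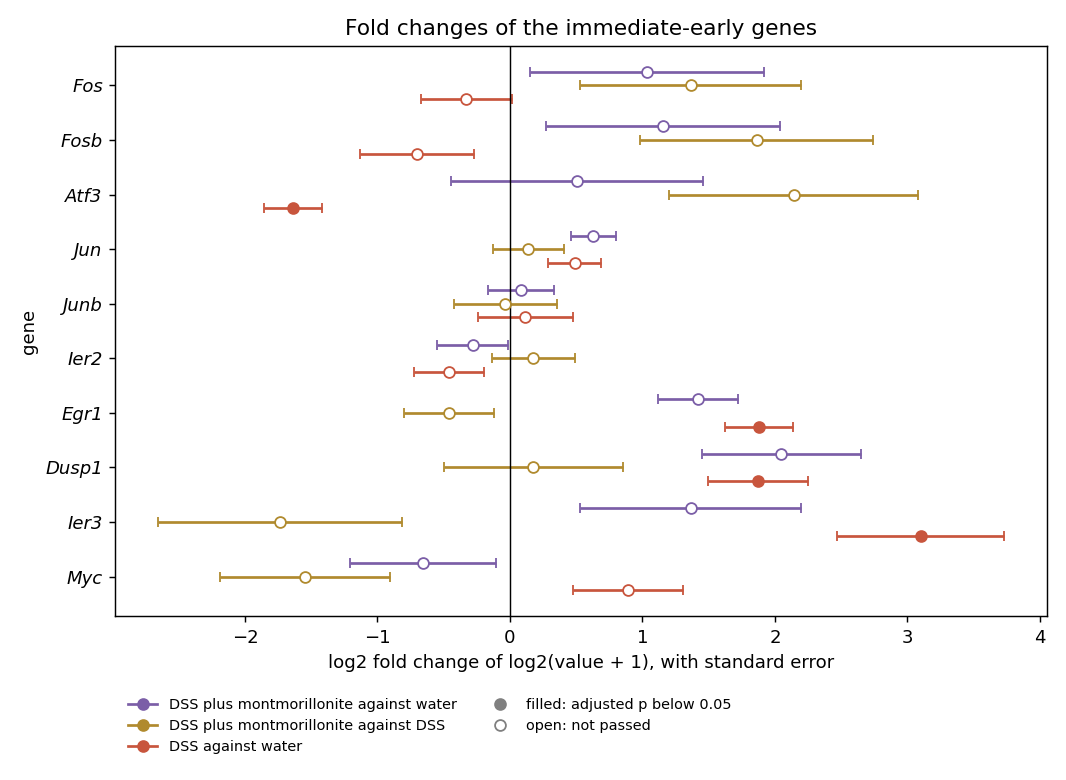
Log2 fold change of log2(value + 1) with its standard error for each immediate-early gene (rows) in the limma fits of 4 libraries, for DSS plus montmorillonite against water, DSS plus montmorillonite against DSS, and DSS against water. Filled points passed an adjusted p of 0.05: Egr1 (1.88), Dusp1 (1.87), Ier3 (3.10) and Atf3 (-1.64), all in DSS against water.

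AP-1 is a dimer, so the mix of Fos and Jun family transcripts within a library is of interest and does not depend on the size factors. Reads per kilobase of exon were summed over Fos, Fosb, Fosl1, Fosl2, Jun, Junb and Jund, and each gene was given as a share. Jund, the constitutive member of the Jun family, took 26.3% and 29.3% in DSS plus montmorillonite libraries, 25.03% and 20.2% in DSS libraries, and 47.7% and 39.0% in water libraries. Water libraries thus had the highest Jund shares. In reads, the ratio of Jund to Jun was 2.33 and 1.28 with DSS plus montmorillonite, 0.985 and 0.964 with DSS, and 3.492 and 3.496 with water. The ratio was nearly the same within the water pair and within the DSS pair and did not overlap between any of the groups. The ratio stands outside the fit across genes and is given without a test. For such a single value, an exact two-sided permutation test with 2 libraries a side can give no p under 0.333. Jund itself had 728 and 959 with DSS, against 2172 and 2099 with water, and fell to 0.392 of the water level (log2 -1.35 ± 0.19 SE, limma adjusted p = 0.0123).

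Junb took 17.1% and 32.3% of the family with DSS plus montmorillonite, 34.6% and 41.9% with DSS, and 23.7% and 29.3% with water. Jun took 5.90% and 11.96% with DSS plus montmorillonite, 13.3% and 10.96% with DSS, and 7.14% and 5.83% with water. Fos took 42.6% in replicate 1 of DSS plus montmorillonite, the largest share of that library, and 14.9% in replicate 2. Its share was 16.4% and 14.6% with DSS and 11.6% and 18.4% with water. Counted in reads, Fos was 3398 of 9315 family reads in replicate 1 of DSS plus montmorillonite (36.5%, 95% exact Clopper-Pearson interval 35.5% to 37.5%) and 491 of 4217 in replicate 2 (11.6%, 10.7% to 12.7%). These intervals cover counting error only. The ratio of Fosb to Fos in reads was 0.0877 and 0.0876 in the same pair of libraries, so that both genes moved about in proportion there. Fosb had 298 and 43 reads in that pair, so the ratio in replicate 2 carries a wide counting error. It was 0.0562 and 0.0667 with DSS and 0.141 and 0.0455 with water. Fosl1, a Fos relative induced in wound repair, had 27.3 and 41.8 with DSS plus montmorillonite, 30.5 and 102 with DSS, and 12.48 and 11.4 with water, and took at most 1.76% of the family, in replicate 2 of DSS.

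**Figure D4:**
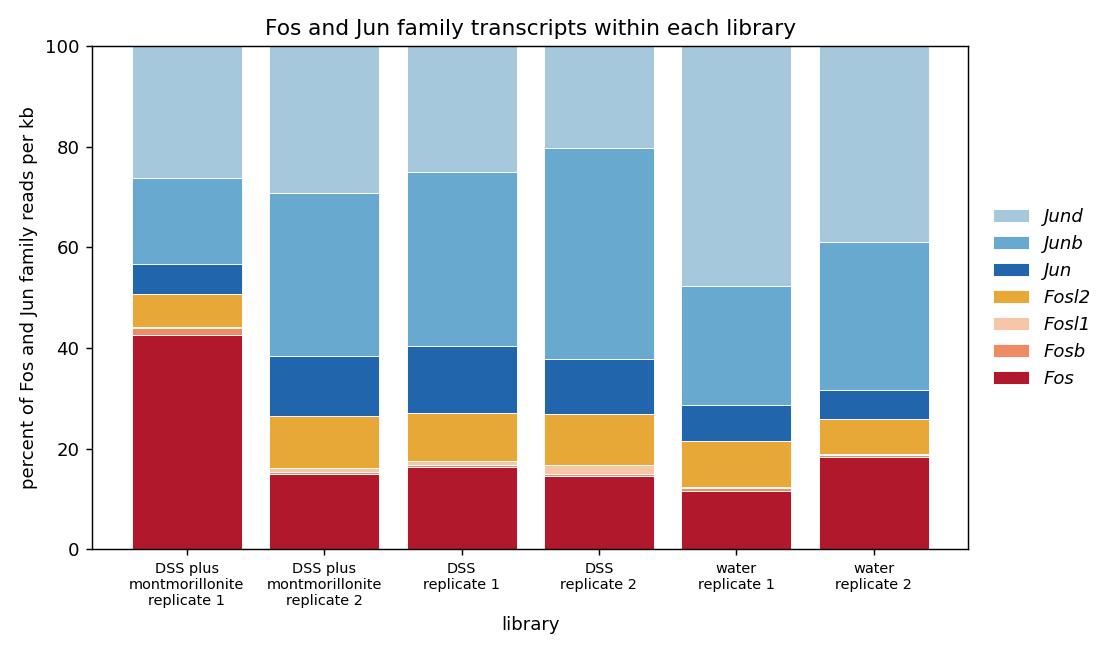
Share of each Fos and Jun family gene among the family's reads per kilobase of exon (percent) in each library, with DSS plus montmorillonite, DSS and water from left to right. Jund takes 39.0% and 47.7% in the water libraries and 20.2% to 29.3% in the others, and Fos takes 42.6% in replicate 1 of DSS plus montmorillonite.

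Over the 6 libraries the members fell into unlike profiles. Likeness was measured as the root mean square distance between log2(value + 1) profiles, each centred on its own mean, over all 45 pairs of members, and is a description that carries no test. The closest pairs were Junb and Ier2 (0.29), Jun and Junb (0.33) and Jun and Ier2 (0.48), the members that varied least. Next came Fos and Fosb (0.52) and Fosb and Atf3 (0.54), and Fos and Atf3 were 0.67 apart. The farthest pairs were Atf3 and Ier3 (2.6015), Fosb and Ier3 (2.27) and Fos and Ier3 (2.07). Egr1 and Dusp1 stood 0.77 apart and Ier3 and Dusp1 0.94. Among the 11932 other genes averaging 50 or more, the nearest to Fos was Trib1, a pseudokinase gene that is itself an early-response gene, at a distance of 0.41. Trib1 had 1926 and 558 with DSS plus montmorillonite, 491 and 579 with DSS, and 761 and 912 with water. The nearest to Atf3 was Ttll10 (0.30), to Fosb the zinc exporter gene Slc30a1 (0.49), to Egr1 Rasl11b (0.09), to Dusp1 the collagen gene Col23a1 (0.16), to Ier3 Clip4 (0.19) and to Myc the chemokine gene Cxcl14 (0.23). Jun was nearest to Arhgef18 (0.05), Junb to Sparcl1 (0.07) and Ier2 to Tab1 (0.07).

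Other early-response genes were counted in DSS against water from lists of textbook members. Of 14 other immediate-early transcription factors 13 were measured, of which 4 rose and 2 fell, against 7.90% and 7.18% of all genes. Markers of other cell types were also called higher in DSS than in water: 6 of 6 of neutrophils, 4 of 4 of B cells (median log2 fold change 2.97), 4 of 6 of endothelium (2.23), 4 of 6 of fibroblasts (1.53) and 3 of 6 of macrophages (0.72). Their part in the changes of these lists was not tested. Nr4a1, an orphan nuclear receptor, had 279 and 498 in DSS libraries, against 49.9 and 45.5 in water libraries, and rose 7.68-fold (log2 2.94 ± 0.34 SE, limma adjusted p = 0.00855). Its relative Nr4a2 had 179 and 323 with DSS, against 16.3 and 13.6 with water (15.1-fold, adjusted p = 0.00694). Cebpb, a leucine zipper factor of inflammation, rose 7.42-fold and Egr3 7.38-fold. Klf4, a factor of differentiated epithelium as well as an early gene, had 1667 and 1605 with DSS, against 7055 and 6734 with water, and fell to 0.237 of water (adjusted p = 0.00362). Klf6 fell to 0.575. With DSS plus montmorillonite, Klf4 had 8647 in replicate 1 and 3367 in replicate 2, and Nr4a1 had 341 and 231, above both water libraries.

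Of the 24 other early-response and feedback genes 4 rose, 2 fell and 18 did not pass in DSS against water, 6 of 24 against 15.1% of all genes called in either direction. Plk2, a kinase of stressed and dividing cells, rose 7.85-fold (limma adjusted p = 0.00580) and Socs3, the inhibitor of STAT3 signalling, 15.6-fold (adjusted p = 0.00861), with 1258 and 3356 with DSS, against 114 and 150 with water. Ier5l also rose (3.58-fold), and so did Cyr61, a secreted matrix protein gene and target of SRF (4.12-fold). Rhob (0.567 of water) and Btg1 (0.630) fell. Among the 9 other AP-1 and small Maf genes Batf rose (4.04-fold), Jund and Mafk (0.587) fell, and 6 did not pass, 3 of 9 called against the same 15.1%. Among 13 other MAP kinase phosphatase and Sprouty genes, only Dusp2 passed, 1 of 13 and thus under the 15.1% of all genes. It had 117 and 127 with DSS, against 14.4 and 27.3 with water (5.89-fold, adjusted p = 0.0177).

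Of 21 genes for MAP kinases, SRF and its partners 2 rose and 3 fell in DSS against water, against 7.90% and 7.18% of all genes. The ternary complex factor gene Elk3 rose 6.08-fold (limma adjusted p = 0.00893) and Crem, a cyclic AMP-responsive factor, 3.59-fold. The kinase genes Mapk3 (0.532 of water), Map2k1 (0.593) and Rps6ka1 (0.595) fell. All 6 epithelial markers fell as well, and their part was not tested. Of 10 genes of the Myc network, which holds the Myc partner Max and related factors, none rose, 5 fell (against 7.18% of all genes) and 5 did not pass. Max had 1041 and 991 with DSS, against 3031 and 2806 with water (0.348 of water, adjusted p = 0.00692). Mxd1, an antagonist of Myc found in differentiated epithelium, fell to 0.347, and Mxi1 to 0.467. Of 16 Myc target genes Odc1 (1.65-fold) and the nucleolar helicase gene Ddx21 (1.65-fold) rose and the cyclin gene Ccnd2 fell to 0.396. Of 8 heat shock genes Hsph1 rose 2.89-fold. The 3 of 16 Myc targets and 1 of 8 heat shock genes called are near the 15.1% of all genes.

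None of these list genes passed in either comparison of DSS plus montmorillonite, where no gene did, and none in the fit of 6 libraries. Whether their calls in DSS against water rest on both DSS libraries cannot be told. Leaving out either one sets a lone library against a pair, where calls were lost for all genes alike. In DSS plus montmorillonite against DSS, 14 of 16 Myc targets were lower without overlap, against 20.6% of all genes, and 1 was higher, with a median log2 fold change of -0.98 beside -0.07 for all genes. In the same comparison 4 of 4 B cell markers were lower without overlap (median -2.53) and 6 of 6 epithelial markers higher (median 1.14). B cell markers summed to 171 and 1148 with DSS plus montmorillonite, against 3396 and 1601 with DSS, and the part of either list was not tested. In DSS plus montmorillonite against water 9 of 16 were lower without overlap, against 19.2% of all genes, and none was higher, with a median of -0.37 beside 0.06. Ncl, the nucleolin gene, had 1870 and 2589 with DSS plus montmorillonite, 3966 and 3826 with DSS, and 2639 and 2897 with water. It was chosen after its values were seen.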

How the data were processed

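The deposited table gives 1 signal value per gene and library. Per the submitters' processing notes the build was GRCm38 (mm10). No label or header names an aligner, a counting tool or a normalisation tool. All values (100%) in a library were whole multiples, to 0.01 read, of what 1 read is worth there, so reads were recovered by division. The deposited scaling matched DESeq2's own size factors for those reads. Every gene had at least 10 reads in total. Symbols, positions and exon lengths came from GENCODE M21, which held 20500 of the 20533 identifiers.

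The members, gene lists, tests and choice of fit were made with earlier results of these data known. limma 3.58.1 (R 4.3.3, intensity trend, two-sided) was run on log2(value + 1), each comparison using its own 4 libraries (2 residual degrees of freedom), since a spread shared by all groups is set by the DSS plus montmorillonite pair. Genes averaging under 1 were left out, and the Benjamini-Hochberg adjustment ran over the other 20307, at 0.05. Fold changes are on the log2(value + 1) scale, which understates low genes. The scripts were checked on simulated data. Genes named beyond the members are the Fos and Jun families, the passing genes of lowest p in each list and direction (3 at most), and each member's nearest profile. Where a list had 5 or fewer calls in a direction, the rest are named to complete the count, chosen after their values were seen. Alternatives were edgeR 4.0.16 and DESeq2 1.42.0 on the recovered reads, a fit of all 6 libraries, other scalings, pseudocounts and filters, thinned reads, a replicate block, and leaving out each library.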

Additional observations from a re-analysis of the deposited data

How the results depend on the processing

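In DSS against water the 4 members called became 0 in the fit of all 6 libraries and 0 without any 1 of the 4 libraries, where the counts of all genes called were 0 in the fit of 6 libraries, 0 without DSS replicate 1 or DSS replicate 2, 288 without water replicate 1 and 317 without water replicate 2, against 3064. With reads thinned to the shallowest library 3 members and 1578 genes passed, and Ier3 did not (adjusted p = 0.0691). DESeq2 on 6 libraries called 3 members, without Atf3. The same 4 members passed with edgeR and DESeq2 on 4 libraries, with TMM scaling, with scaling by library size only, and with the other pseudocounts and filters. Scaling by library size only moved the median of all genes by 0.22 in DSS against water, where 2199 genes were then higher and 893 lower, against 1605 and 1459, and by -0.24 in DSS plus montmorillonite against DSS, where Jun (-0.12), Ier2 (-0.0827) and Dusp1 (-0.0816) changed sign.

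In DSS plus montmorillonite against water DESeq2 called 1 member on 4 libraries and 2 on 6 libraries, and the median over the members, 0.83 in limma, was 1.23 with edgeR, 1.25 with DESeq2 on 4 libraries and 1.27 on 6 libraries. It ranged from 0.0516 to 0.90 with 1 library left out. In DSS plus montmorillonite against DSS DESeq2 on 6 libraries called 1 member, Atf3 (adjusted p = 0.0200), and 0 to 2 members passed with 1 library left out. Leaving out 1 library changed the sign of Fos (-0.785 to 0.125) and Junb (-0.37 to 0.61) in DSS against water. In DSS plus montmorillonite against water it did so for Fos (-0.19 to 2.26), Fosb (-0.0629 to 2.38), Atf3 (-0.90 to 1.91), Myc (-1.34 to 0.0324) and Junb (-0.19 to 0.36), and in DSS plus montmorillonite against DSS for Jun (-0.0736 to 0.35), Junb (-0.53 to 0.46), Ier2 (-0.0921 to 0.44) and Dusp1 (-0.66 to 1.0112). The cause was not tested.

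Libraries share replicate numbers across groups, and the deviations of same-numbered libraries correlated at 0.43, 0.19 and 0.27 over 11942 genes, but nothing in the labels pairs them. With the replicate number as a block, 5 members passed in DSS against water, with Myc added (adjusted p = 0.0234), and 5084 genes in all, and 0 passed in the other comparisons. Fosb had the fewest reads of the members, 28 in the shallowest library.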
